A study of Mus musculus with 6 samples.

Results

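Tetraspanins are small membrane proteins that cross the membrane 4 times and gather integrins, immunoglobulin superfamily proteins, proteases and signalling molecules into surface microdomains. In leukocytes several are known by their CD names, and a subgroup named TspanC8 guides the metalloprotease ADAM10 to the cell surface. This family was examined in resting CD8+ T cells (CD8-TC) with and without the transcription factor Runx3. Its genes were chosen by symbol: those named Tspan with a number, and Cd9, Cd37, Cd53, Cd63, Cd81, Cd82 and Cd151. Of 19938 genes read by a probe set assigned to them alone, 26 met this rule. The rule takes the probe set with the brightest signal where a gene has several. Every member had 1, so that no measured value decided between probe sets. The family itself was taken up with results of these arrays known, among them the rise of Tspan32. Tspan7, a further family gene in RefSeq, had no such probe set and was not analysed here.

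RNA came from splenic CD8-TC, freshly isolated from male ICR mice (an outbred stock) aged 6 weeks, and was read on 6 Affymetrix mouse Gene ST 1.0 arrays, 3 of WT (Runx3 +/+) and 3 of Runx3-/- cells. The methods call the 3 arrays of a genotype biological repeats, and no source used here states how many mice gave each of them. WT CD8-TC were taken by anti-CD8 magnetic beads, whereas Runx3-/- CD8-TC also passed a FACS sort that removed CD8+ dendritic cells carrying CD11c. The number of purification steps and the genotype therefore cannot be told apart, although another label names sorting for all samples. Across genes, pairs of arrays correlated at 0.985 or more within a genotype and at 0.971 or less between genotypes.

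Values are RMA signals on the log2 scale, and differences are Runx3-/- minus WT on that scale. A gene was tested when its signal reached the median of all probe sets, between 3.45 and 3.53 on each array, in at least 1 array. The targeted gene did not pass the test, with Runx3 signals of 7.09, 7.30 and 6.99 in WT against 7.06, 7.17 and 7.64 in Runx3-/- arrays (difference 0.16 ± 0.16 SE, limma adjusted p = 0.559), and its sign turned without Runx3-/- replicate 3. No source used here states where its probe set lies relative to the deletion, so this level does not check the genotype labels. Cd4, which Runx3 silences in this lineage, differed by 2.57 ± 0.12 and Itgae by -2.61 ± 0.17 (adjusted p = 2.36e-05 and 9.91e-05). Of the T cell markers tested, 1 of 7 rose, Cd247 at 0.61 ± 0.12, and none fell (5.63% of all tested genes rose and 6.00% fell).

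Markers of several other cell types differed between the genotypes, where 5.63% of all tested genes rose and 6.00% fell. Counts in the shorter lists are a description. All 10 tested B cell markers and all 13 macrophage and monocyte markers fell, with summed linear signals of 1139 to 1730 in WT and 232 to 297 in Runx3-/- arrays for B cells and of 2231 to 2259 and 273 to 433 for macrophages. Of 8 tested erythroid markers 5 fell and 1 rose (sums 475 to 701 and 254 to 272), and of 13 tested dendritic cell markers 3 fell (5380 to 10046 and 3031 to 5517). The single platelet marker tested, Ppbp, fell, and 6 other platelet markers stayed below the array median in every array (sums 70.8 to 83.8 and 58.0 to 60.9). Of 3 tested neutrophil markers 2 fell (sums 76.3 to 119 and 59.7 to 72.6), and 0 of 5 natural killer cell markers passed in limma (sums 337 to 476 and 294 to 364). No marker was at 0. Of the markers that fell, Fcer2a, Slc4a1, Car1, Epb42, Ppbp, S100a8 and Ngp reached the array median in WT arrays only. Gata1, the erythroid marker that rose, reached it in Runx3-/- arrays only. These could enter the test only through the group in which they were higher, so that their part in the counts is a description. In bulk RNA, fewer cells of a type and less RNA per cell cannot be told apart.

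**Figure D1:**
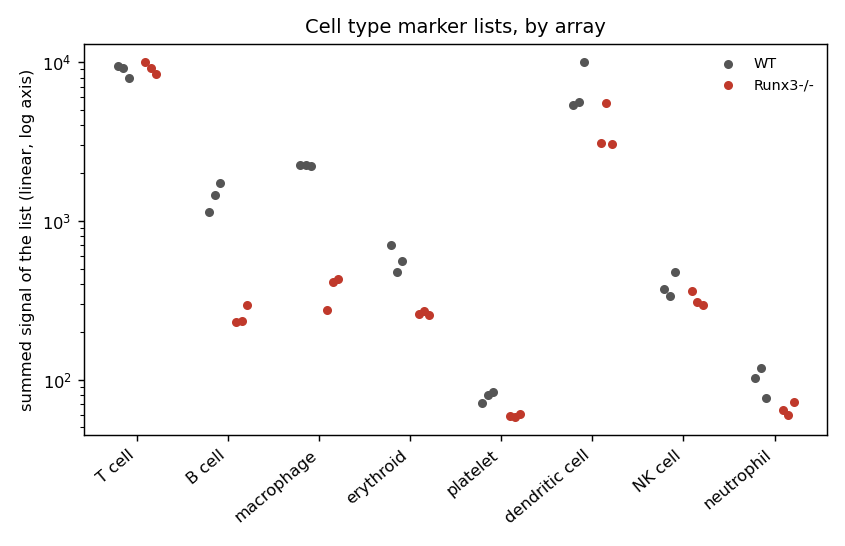
Summed linear signal (vertical axis, log scale) of 8 cell type marker lists (horizontal axis), with 1 point per array, grey for WT and red for Runx3-/-. B cell, macrophage, erythroid, platelet and neutrophil sums lie apart between genotypes, macrophages at 2231 to 2259 against 273 to 433, whereas T cell sums overlap.

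The sequences before the starts of 3 members are shown: Tspan32 and Cd81, which are neighbours on chromosome 7 and gave different values in the comparison, and Tspan3, the member with the next rise in size after Tspan32. Each is the 250 bases before the RefSeq transcription start (GRCm38.p6), written 5′ to 3′ on the gene's strand, with matches to a RUNX motif in capitals. They lie at chr7:143004796-143005045 (plus strand) for Tspan32, chr7:143052500-143052749 (plus strand) for Cd81 and chr9:56161071-56161320 (minus strand) for Tspan3.

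Tspan32: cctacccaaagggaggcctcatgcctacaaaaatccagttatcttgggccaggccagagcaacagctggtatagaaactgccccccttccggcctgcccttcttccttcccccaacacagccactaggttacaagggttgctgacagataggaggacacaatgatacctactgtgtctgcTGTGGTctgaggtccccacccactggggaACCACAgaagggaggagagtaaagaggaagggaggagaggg

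Cd81: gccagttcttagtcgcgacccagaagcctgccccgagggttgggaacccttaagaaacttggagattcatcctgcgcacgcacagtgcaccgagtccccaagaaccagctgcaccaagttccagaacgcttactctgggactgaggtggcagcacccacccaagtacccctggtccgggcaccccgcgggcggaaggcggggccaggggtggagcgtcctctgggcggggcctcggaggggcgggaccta

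Tspan3: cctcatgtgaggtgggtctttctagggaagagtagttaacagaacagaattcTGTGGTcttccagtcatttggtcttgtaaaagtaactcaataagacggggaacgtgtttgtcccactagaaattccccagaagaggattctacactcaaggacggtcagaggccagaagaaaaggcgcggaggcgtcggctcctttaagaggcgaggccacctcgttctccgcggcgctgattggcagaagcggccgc

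The motifs searched were TGTGGT and TGTGGC as well as the rarer TGCGGT and TGCGGC, on both strands, and matches of different motifs may overlap. The Tspan32 window held TGTGGT once on each strand, 70 to 65 and 41 to 36 bases before the start. The Tspan3 window held TGTGGT once, 198 to 193 bases before the start, and the Cd81 window held none of the 4 motifs. Among 32851 promoter windows of this length in the RefSeq table, 38% held at least 1 of the motifs, 14% held TGTGGT and 8.92% held 2 or more matches. For 25 of the 26 members the table gave 35 windows, and 14 of these (40%) held a match, near the share of all promoters. Of the 6 members described next as higher or lower, 3 had a match, Tspan32, Tspan3 and, in 1 of its 2 windows, Tspan4. Cd9, Tspan14 and Tspan31 had none. Counts per gene take all windows of a gene together and cannot be set beside the 38% of windows. No such share over all genes was taken. Over all members 12 had a match in at least 1 window. Among these, Cd53, Cd82, Tspan2, Tspan5, Tspan9, Tspan13 and Tspan15 did not pass the test. Tspan1 and Tspan8 also had a match and were not tested. The windows shown were picked by signal differences and do not tell how matches and differences go together. These matches are descriptions of letters, and binding of Runx3 at them was not examined here.

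In Runx3-/- arrays the signals of Tspan32, Tspan3, Cd9 and Tspan14 were higher and those of Tspan4 and Tspan31 lower. Tspan32 and Tspan3 passed under all 16 alternatives, Tspan14 and Tspan4 under 15, Cd9 under 12 and Tspan31 under 6. The part of other cell types and of the purification in these differences was not tested. The largest of these differences was the 5.03-fold rise of Tspan32, while Tspan3, Cd9, Tspan14 and Tspan31 moved by 1.53-fold to 1.94-fold. For Tspan4 no fold is given, since its Runx3-/- signals were not shown to lie above background. In all, 19 of the 26 members were tested and 7 were not. Of the 19, 4 were higher (5.63% of all 9924 tested genes were), 2 were lower (6.00% of all tested genes) and 13 did not pass the test. Of all tested genes 11.6% differed in either direction. The median difference was -0.14 over the tested members and 0.0062 over all tested genes. Tspan2, Tspan4 and Tspan15 reached the array median in WT arrays only, so that they could enter the test only through the group in which they were higher, and the counts are a description and no support for a change of the family. The other 16 reached it in all 6 arrays, and 5 of the 6 members that passed are among these.

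**Figure D2:**
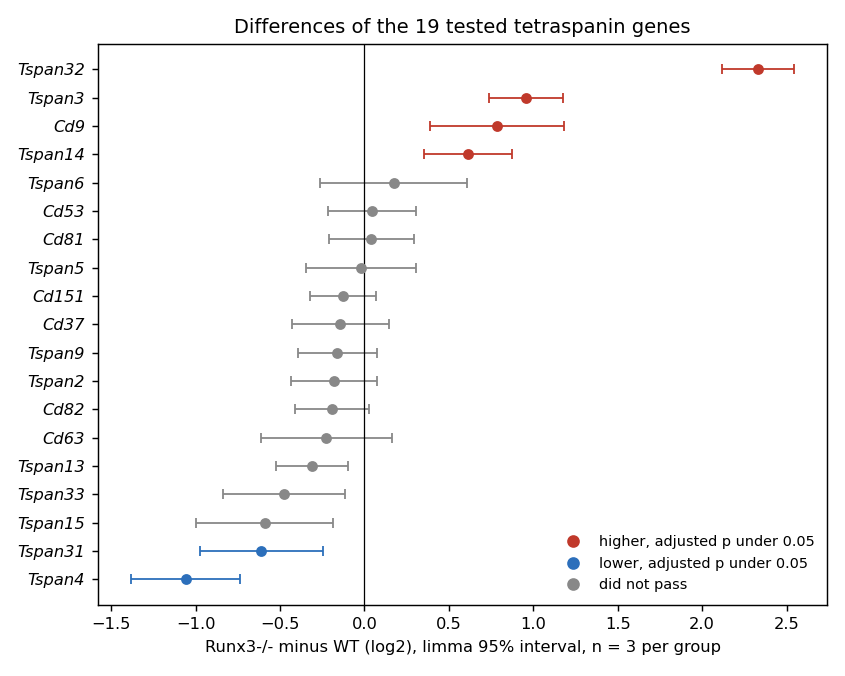
Difference Runx3-/- minus WT on the log2 scale (horizontal axis) of the 19 tested tetraspanin genes (vertical axis), with limma 95% intervals, n = 3 arrays per group. Tspan32 at 2.33 lies apart from the other members, which range from -1.06 for Tspan4 to 0.96 for Tspan3.

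Tspan32 encodes a tetraspanin of haematopoietic cells that restrains T cell proliferation. Its signal was 6.34, 6.47 and 6.47 in WT against 8.67, 8.84 and 8.78 in Runx3-/- arrays. The genotypes did not overlap, and the gap between them was far wider than the spread within either (6.43 ± 0.08 and 8.76 ± 0.09, SD, n = 3 arrays). The difference was 2.33 ± 0.09 (SE), or 5.03-fold, and its 95% interval ran from 4.34 to 5.84 (limma adjusted p = 1.91e-05). By size it was number 10 among the rises of all tested genes. It passed under all 16 alternatives with a value, between 2.29 and 2.38, including those that left out an array and the one without moderation of variances (adjusted p = 0.0115).

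The gene next to Tspan32 in RefSeq order is Cd81, another tetraspanin, which is found on most cell types. Cd81 read 8.23, 8.29 and 8.50 in WT against 8.29, 8.52 and 8.34 in Runx3-/- arrays. The genotypes overlapped and the difference was 0.04 ± 0.11 (SE, adjusted p = 0.845), with a sign that turned without WT replicate 1 or Runx3-/- replicate 2. Its 95% interval, from -0.21 to 0.29, did not reach that of Tspan32, from 2.12 to 2.55. On the other side of Tspan32, Ascl2, Th and Ins2 lay below the array median on every array, as did Trpm5 and Kcnq1 beyond Cd81. Tssc4, between Cd81 and Trpm5, did not pass at 0.13 ± 0.11 (adjusted p = 0.518). Of the 3 tested genes in this stretch of 8, Tspan32 alone passed.

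**Figure D3:**
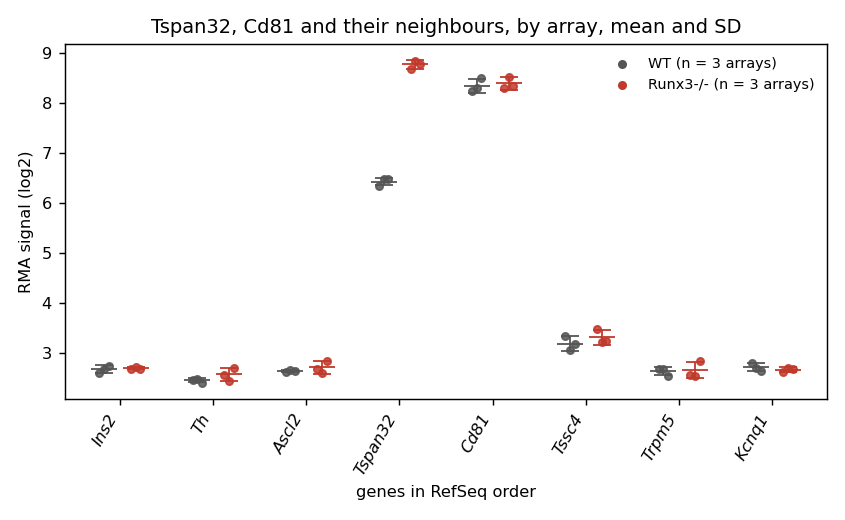
Vertical axis, log2 RMA signal of Tspan32, Cd81 and the 6 genes around them in RefSeq order (horizontal axis), with 1 point per array and bars for mean and SD over 3 arrays. WT (grey) and Runx3-/- (red) arrays part at Tspan32, near 6.43 and 8.76, and overlap at Cd81.

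Tspan3, which encodes a broadly expressed tetraspanin, read 7.43, 7.23 and 7.45 in WT against 8.29, 8.35 and 8.34 in Runx3-/- arrays. The genotypes did not overlap, and the Runx3-/- arrays were closer to each other (SD 0.03) than the WT arrays (SD 0.12). The rise was 1.94-fold, and its 95% interval ran from 1.67 to 2.26 (difference 0.96 ± 0.10 SE, limma adjusted p = 0.000633). Tspan3 passed under all 16 alternatives, between 0.89 and 0.998. Tspan32 and Tspan3 were the members that passed in every one of them.

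Cd9 encodes a tetraspanin that binds integrins and immunoglobulin superfamily partners and is abundant on platelets and on some B cells. Its signal was 6.87, 6.27 and 6.96 in WT against 7.58, 7.48 and 7.39 in Runx3-/- arrays. All Runx3-/- arrays were higher than all WT arrays, among which replicate 2 was low. The rise was 1.72-fold, and its 95% interval ran from 1.31 to 2.27 (difference 0.78 ± 0.17 SE, adjusted p = 0.0253). Without Runx3-/- replicate 1, 2 or 3 Cd9 did not pass (adjusted p = 0.0689, 0.0771 and 0.0632), nor without moderation of variances (0.163). With any 1 array left out the difference lay between 0.57, without WT replicate 2, and 0.91. The B cell markers and Ppbp, the single platelet marker tested, were lower in Runx3-/- arrays, and the part of those cells in the Cd9 signal was not tested.

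Tspan14 belongs to the TspanC8 subgroup. It read 7.98, 8.04 and 7.72 in WT against 8.56, 8.60 and 8.41 in Runx3-/- arrays, without overlap. The rise was 1.53-fold, and its 95% interval ran from 1.28 to 1.83 (difference 0.61 ± 0.11 SE, adjusted p = 0.0122), and it passed under 15 of 16 alternatives, the exception being the one without moderation of variances (0.0971).

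**Figure D4:**
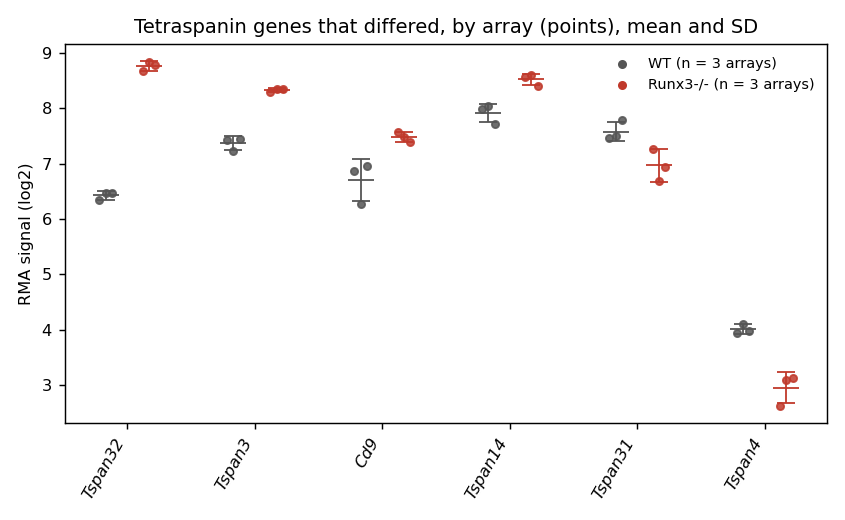
Vertical axis, log2 RMA signal of the 6 tetraspanin genes that passed the test (horizontal axis), with 1 point per array (WT in grey, Runx3-/- in red) and bars for mean and SD over 3 arrays. No gene overlaps between genotypes, and Tspan31 comes closest, with 7.27 in the highest Runx3-/- array and 7.46 in the lowest WT array.

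Tspan4, known for its part in the formation of migrasomes by moving cells, read 3.95, 4.11 and 3.97 in WT against 2.63, 3.09 and 3.13 in Runx3-/- arrays. The WT arrays lay above the array median and the Runx3-/- arrays below it. The latter were at the level of the members that were not tested (WT means 2.77 to 3.08). The difference between the listed signals was -1.06 ± 0.14 (SE, limma adjusted p = 0.00274). Tspan4 passed under 15 of 16 alternatives and did not pass without moderation of variances (adjusted p = 0.0787). All 13 macrophage and all 10 B cell markers fell in the same arrays, with medians of -2.62 and -2.28, and the part of those cells in the fall of Tspan4 was not tested. Cd151, which sits 1 gene away from Tspan4 and encodes a partner of laminin-binding integrins, read 3.99, 3.89 and 3.92 in WT against 3.79, 3.84 and 3.79 in Runx3-/- arrays. These did not overlap, but the difference of -0.13 ± 0.08 did not pass (adjusted p = 0.369).

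Tspan31, a tetraspanin gene amplified in some human sarcomas, read 7.46, 7.49 and 7.78 in WT against 7.27, 6.69 and 6.94 in Runx3-/- arrays. The arrays parted by genotype, with the Runx3-/- arrays spread more widely. The fall was 1.53-fold, and its 95% interval ran from 1.19 to 1.96 (difference -0.61 ± 0.16 SE, adjusted p = 0.0435). This call rested on the settings: Tspan31 did not pass under 10 of 16 alternatives, among them quantile normalization (adjusted p = 0.0542), no filter on signal (0.0729) and the replicate block (0.0619). It also did not pass without WT replicate 1, 2 or 3 (0.0839, 0.0771 and 0.0959) or without Runx3-/- replicate 2 or 3 (0.123 and 0.117).

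Of the 7 members with CD names, Cd9 rose, 0 fell and 6 did not pass. Beside the shares of all tested genes (5.63% rose and 6.00% fell), this count is a description and no support for a change of the subgroup. Cd53, a tetraspanin of nearly all leukocytes, read 11.18, 11.09 and 10.88 in WT against 11.17, 11.15 and 10.96 in Runx3-/- arrays, with overlap and a 95% interval of the difference from -0.21 to 0.30. Cd37, which is prominent on mature B cells, read 8.70, 9.14 and 9.01 in WT against 8.88, 8.78 and 8.76 in Runx3-/- arrays. It overlapped and gave -0.14 ± 0.12 (SE, limma adjusted p = 0.508), in arrays in which all 10 tested B cell markers fell with a median of -2.28. Cd82, a suppressor of metastasis in tumours, read 9.74, 9.95 and 9.92 in WT against 9.72, 9.70 and 9.61 in Runx3-/- arrays, just apart, with a difference of -0.19 ± 0.10 (adjusted p = 0.238). Cd63, the tetraspanin of late endosomes and exosomes, gave 3.87, 3.55 and 4.21 in WT against 3.51, 3.60 and 3.84 in Runx3-/- arrays, with overlap and a difference of -0.23 ± 0.17 (adjusted p = 0.430). For Cd53 and Cd81 the intervals leave room for changes of up to 1.23-fold upwards.

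Of the 6 TspanC8 genes, Tspan14 rose, Tspan5, Tspan15 and Tspan33 did not pass, and Tspan10 and Tspan17 were below the array median on every array. Where 5.63% of all tested genes rose and 6.00% fell, this count too is no more than a description. Tspan15 read 4.19, 3.57 and 3.54 in WT against 3.26, 3.01 and 3.26 in Runx3-/- arrays. All WT arrays were higher, and the difference of -0.59 ± 0.18 (SE) did not pass (adjusted p = 0.0683) except without WT replicate 3 (0.0493). Tspan33, which is known from erythroid cells and activated B cells, read 4.27, 3.88 and 4.53 in WT against 3.73, 3.84 and 3.69 in Runx3-/- arrays. Its difference of -0.48 ± 0.16 did not pass either (adjusted p = 0.0912), except without WT replicate 2 (0.0216). The erythroid and B cell lists had median differences of -1.18 and -2.28, and their part in Tspan33 was not tested. Tspan5 overlapped (6.00, 6.13 and 5.68 against 6.13, 5.83 and 5.80), and its difference of -0.02 ± 0.14 had no stable sign. ADAM10, the protease these tetraspanins escort, gave Adam10 signals of 8.36, 8.24 and 8.22 in WT against 8.41, 8.22 and 8.11 in Runx3-/- arrays, with a difference of -0.03 ± 0.11 (adjusted p = 0.889) whose sign turned without WT replicate 1 or Runx3-/- replicate 3.

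The remaining tested members did not pass. Tspan13 read 9.94, 9.83 and 9.81 in WT against 9.53, 9.65 and 9.47 in Runx3-/- arrays. The genotypes did not overlap, and the difference of -0.31 ± 0.09 (SE) had an adjusted p of 0.0698 in limma and of 0.0345 with a variance trend. Tspan6, Tspan9 and Tspan2 gave 0.17 ± 0.19, -0.16 ± 0.10 and -0.18 ± 0.11. Over the tested members, 4 had Runx3-/- arrays all above and 7 all below the WT arrays. Of all tested genes 33.6% had groups that did not overlap. By the fold and p cutoffs of the methods (1.5-fold and an unadjusted p under 0.05, here from limma), 7 members differed. These were the 6 above and Tspan15, where 8.07% of all tested genes differed. Tspan4 and Tspan15, counted here and among the 7 below, reached the array median in WT arrays only. Their place past the 1.5-fold cutoff rests on Runx3-/- signals below that median, which were not shown to lie above background. The methods also ask for a signal above background, in place of which the array median filter stood here. The members that were not tested, Tspan1, Tspan8, Tspan10, Tspan11, Tspan12, Tspan17 and Tspan18, had WT means between 2.77 and 3.08, below the array median on every array. No detection call was used here.

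Genes around the tetraspanins were read from fixed lists. Of all tested genes 5.63% rose and 6.00% fell, with a median difference of 0.0062. Beside these shares, the counts in such short lists are a description and no support for a change of a list. Of 12 tested integrin and immunoglobulin superfamily partners, 1 rose, Cd4, named above as silenced by Runx3, and 0 fell, with a median of 0.31. The next by p were the integrin chains Itga6 (0.65 ± 0.21, SE, limma adjusted p = 0.0801) and Itgb2 (0.35 ± 0.11, 0.0809) and the receptor Cd5 (0.24 ± 0.09, 0.122), which did not pass. Itgb2 did pass under 5 of its 16 alternatives. Of 4 tested genes of the ADAM list, Notch2, which encodes a receptor cleaved by ADAM10, fell by 0.65 ± 0.10 (adjusted p = 0.00565, and 0.0624 without moderation of variances), whereas Notch1 gave 0.32 ± 0.11 (0.105) and Adam17 -0.02 ± 0.12 (0.947). Of 7 genes of trafficking and palmitoylation, 2 fell and 5 did not pass (list median -0.14). These were Sdcbp, which encodes the CD63-binding adaptor syntenin (-0.38 ± 0.10, adjusted p = 0.0417), and Pdcd6ip, which encodes its ESCRT partner ALIX (-0.39 ± 0.11, 0.0499). Each of them did not pass under 8 of 16 alternatives, in both cases without WT replicate 1 or 2 or any 1 of the Runx3-/- replicates (adjusted p between 0.0629 and 0.163). Lamp2 and Lamp1, of lysosomal membranes, did not pass at -0.32 ± 0.12 and -0.14 ± 0.09. In the same arrays the B cell and macrophage markers fell, with medians of -2.28 and -2.62. The part of those cells in the falls of Notch2, Sdcbp and Pdcd6ip was not tested. Of 4 tetraspanins under other names, Upk1a, Upk1b and Prph2 were below the array median on every array and Rom1 gave -0.09 ± 0.10 (adjusted p = 0.624).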

How the data were processed

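Gene expression was measured in CD8-TC of 3 WT and 3 Runx3-/- samples, with genotype and replicate number taken from the sample titles. The authors deposited log2 signals per probe set, which they made by RMA with GC correction in Partek, as their methods and the submitters' processing notes name it. Software version and genome build: not given in the sources used here. RMA draws the arrays towards 1 distribution, so that differences are relative to all probes.

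GEO's platform annotation paired 21789 of 35399 probe sets with 1 gene symbol, 1621 with several and 11989 with none. A gene was its brightest single-gene probe set and was tested when it reached the array median in at least 1 of 6 arrays, which left 9924 genes. They were fitted with limma (version 3.58.1, R 4.3.3; lmFit and eBayes, two-sided, without covariates). Benjamini-Hochberg adjustment ran over all tested genes, and a gene passed at an adjusted p under 0.05. Errors are the SD over arrays or the SE of a limma difference, and 95% intervals come from the same fit. The number of arrays limits the precision. The p-values set a difference against the spread between arrays, with variances moderated over all tested genes. The methods call these arrays biological repeats, and the number of mice behind each is not stated. The fit was checked on simulated data. Motifs were searched in promoters of RefSeq (GRCm38.p6), of which only the 250 bases before each start were used. No probe set position was used.

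Alternatives changed the normalization, filter, probe set rule, variance model, weights, threshold and replicate block or left out 1 array. All members were named, with Runx3, Cd4, Itgae, the 3 genes on each side of Tspan32 and Cd81 in RefSeq order, and up to 4 genes with the lowest p from each list. Cell type markers were counted as lists. The result of 1 further list is not reported here. The members and lists were chosen with earlier results of these data known.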

Additional observations from a re-analysis of the deposited data

How the results depend on the processing

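Tspan32 and Tspan3 passed under all 16 alternatives run, and none of the 6 members that passed changed its sign under any of them. Of the 96 values of these 6 members, 80 were still past the threshold and 16 were not. Of the 206 values of members that did not pass, 3 did pass (Tspan13, Tspan15 and Tspan33). Without moderation of variances, 2 members differed, 2 higher and 0 lower (9 tested members had an unadjusted p under 0.05 in the moderated fit), and 178 of all genes did. The number of lower members was 1 under quantile normalization, with no filter on signal, with a filter at the 25th percentile and with the replicate block, where Tspan31 was lost. With 1 array left out, 1 to 2 members were lower, and 619 to 920 of all genes differed, against 1154 with all arrays. It was 619 without WT replicate 1, 631 without Runx3-/- replicate 2 and 621 without Runx3-/- replicate 3, and fewer arrays also lower the precision. Signs turned for members and partner genes with differences near 0. Tspan5 gave 0.0014 with arrays centred on their median, and -0.15 to 0.079 with 1 array left out. Cd53 and Cd81 gave -0.043 to 0.11 and -0.026 to 0.12 with 1 array left out. Runx3 gave -0.012 to 0.28 and Adam10 -0.11 to 0.038. Adam17 gave -0.084 to 0.10, 0.0026 with centred arrays and 0.028 with array weights. The alternatives of these and other genes outside the family were added after the data were seen. No scaling moved the median difference of all genes by more than from -0.016 to 0.026.

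Same-numbered arrays of the 2 genotypes had deviations from their group means that correlated at 0.18, 0.032 and -0.00014. Of 6 arrays 2 matched their own number best. With 3 arrays per group this cannot decide whether the numbers pair the samples, and the main fit used no pairing. With the replicate block 5 members differed, 4 higher and 1 lower, and 1084 of all genes.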
